A study of Mus musculus with 30 samples.

Results

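The genes described here are those of cyclins E and A, their kinase partner CDK2 and the proteins that switch that kinase on and off at the passage from G1 to S phase: Ccne1, Ccne2, Ccna2, Cdk2, Cdc25a, Skp2, Cks1b, Fbxo5 and Fbxw7. They are 9 of the 18194 mouse genes that had a probe set of their own on the array. They were chosen by name, with earlier results of these data known. Together they have 21 of the 45101 probe sets, a probe set being a group of short probes against one transcript. Each gene was read from its probe set with the highest mean over all 30 arrays, and all 9 were among the 14548 genes kept after a filter on low values.

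The study measured RNA of the small intestine in mice aged 2 months, taken 5 days after the genes were deleted. Villi, the projections lined by differentiated cells, and crypts, the pits that hold stem cells and dividing progenitors, were profiled apart. The groups were control, Rb KO, in which Rb1 (the gene of the retinoblastoma protein) was deleted, and Rb/Myc DKO, in which Myc was deleted as well. Each genotype had 5 arrays in each tissue. Deletion used Ah-cre, an inducible Cre recombinase of the intestine, so other cells of the same samples can keep the genes. The labels do not give the control mice's alleles or Cre status, nor whether the 5 arrays of a group came from separate mice, so p-values measure the spread between these samples.

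Cyclin E, encoded by Ccne1 and Ccne2, binds CDK2 late in G1, and cyclin A2 binds it as DNA replication begins. The retinoblastoma protein holds E2F transcription factors inactive until cyclin-dependent kinases phosphorylate it, and genes of cyclin E, cyclin A2 and CDK2 are known E2F targets. In the normal intestine cells divide in the crypt and leave the cell cycle as they move onto the villus. Myc, a transcription factor of growth and proliferation, is expressed by crypt progenitors.

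The values are deposited log2 expression values, on which a difference is the logarithm of a ratio. A gene is called where the adjusted p of limma (Benjamini-Hochberg over 14548 genes, two-sided) was below 0.05. Within a group, arrays correlated pairwise with r from 0.987 to 0.9973, and precision is limited by how many arrays there are. Villus and crypt arrays seemed to have been normalized apart, so no level was compared across tissues. The comparisons of Rb KO and of DKO with controls share the control arrays.

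Rb1 itself ranged from 9.14 to 10.21 in control villi and from 8.19 to 8.34 in those of Rb KO, and the difference was -1.46 ± 0.16 (SE; adjusted p = 7.0e-06), while that in crypts was -1.68 ± 0.18 (adjusted p = 2.7e-05). The difference of Myc between DKO and Rb KO was -1.60 ± 0.16 in crypts (SE; adjusted p = 1.9e-05). In villi it was -0.52 ± 0.21 and did not pass the test (adjusted p = 0.147), although the 2 groups of arrays did not overlap. Whether these probe sets lie in the deleted parts of the genes is not given in the sources used here. All 9 crypt markers and 9 of 10 villus enterocyte markers passed the filter. In villus samples the mean of the crypt markers ran from 7.99 to 10.24 in controls, 8.81 to 10.10 in Rb KO, and in DKO 9.12 to 10.30. The spread was widest among the controls.

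In villi, 7 of the 9 genes were higher in Rb KO than in control. Ccne2 rose 11.8-fold, Fbxo5 6.68-fold, Ccne1 5.50-fold, Cdk2 4.50-fold, Ccna2 3.68-fold, Skp2 3.51-fold and Cks1b 2.6-fold. The other two, Cdc25a and Fbxw7, did not pass the test. Over all genes tested, 30.5% were called in this comparison and 14.7% were called higher. The median difference of the 9 genes was 1.88, against -0.02 over all genes. In tissue samples such as these, more cells that express a gene and more RNA per cell cannot be told apart.

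**Figure D1:**
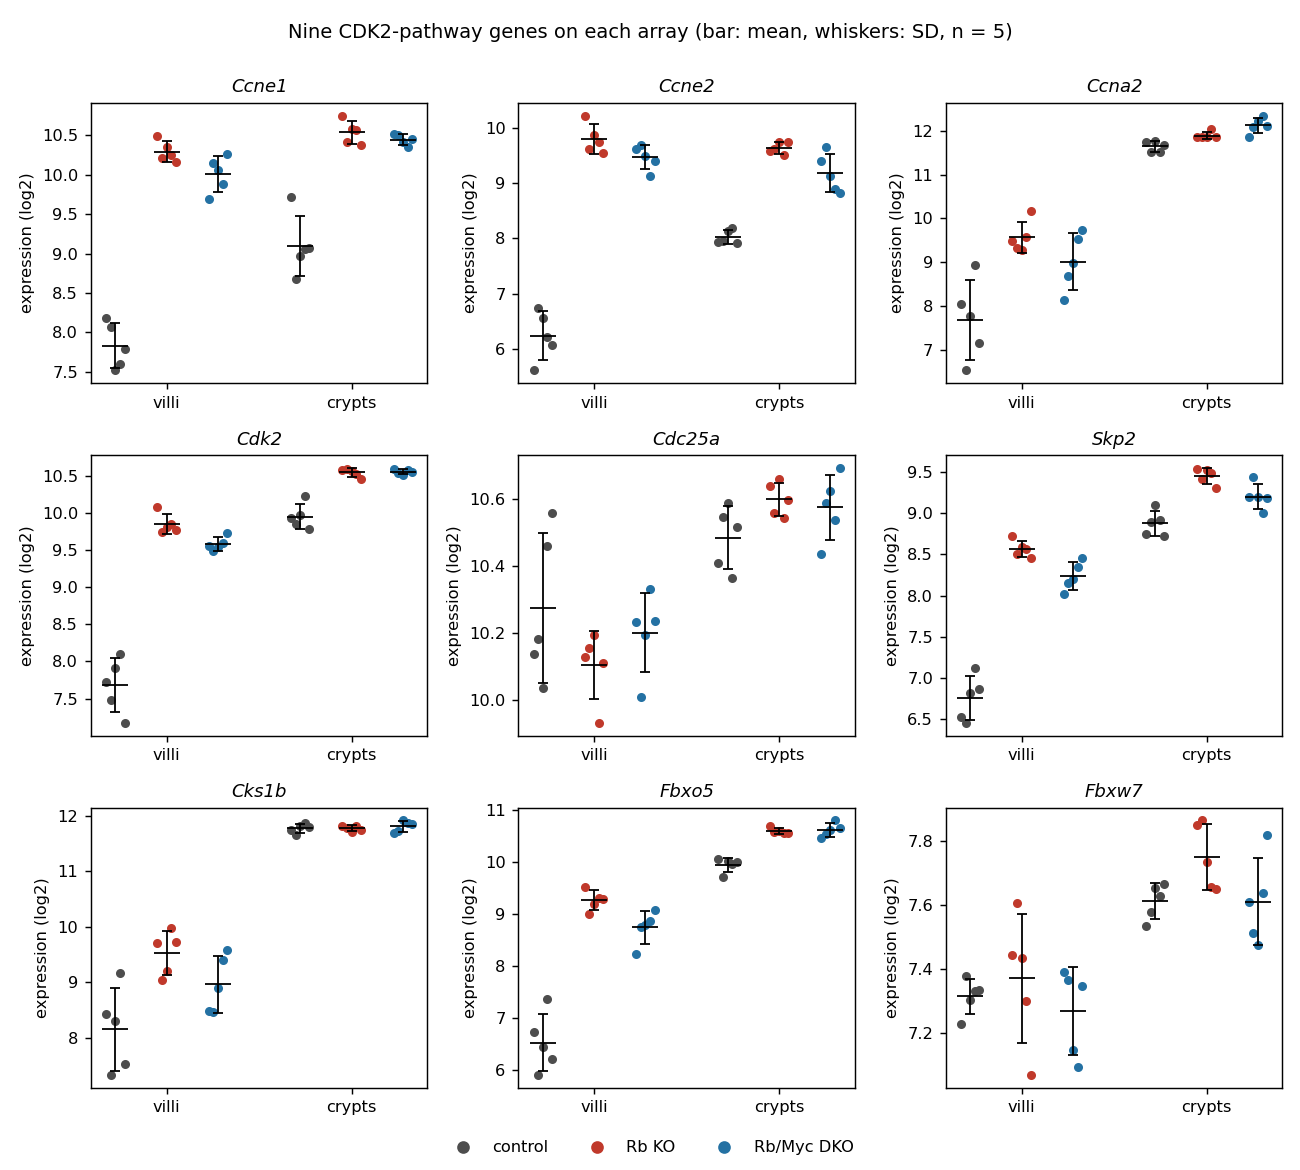
Deposited log2 expression of the 9 genes on each of the 30 arrays, with points for arrays, a bar for the mean and whiskers for the SD of 5 arrays, in villi and crypts of each genotype. Each panel has its own axis. The Rb KO arrays of Ccne1, Ccne2, Ccna2, Cdk2, Skp2 and Fbxo5 lie above every control array in both tissues, while those of Cdc25a, Cks1b and Fbxw7 overlap the controls in both. Of all genes, 9.88% lie above every control array in villi and 6.76% in crypts.

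The E-type cyclins are the activating partners of CDK2 at the start of S phase. In control villi Ccne1 read 8.18, 8.07, 7.52, 7.60 and 7.79 on the 5 arrays, in replicate order. Rb KO villi read 10.49, 10.21, 10.35, 10.24 and 10.16. DKO villi read 9.69, 10.15, 10.06, 9.88 and 10.26. Both mutant groups thus stood fully above the controls, by at least 1.51 between the nearest arrays, and overlapped each other. Rb KO exceeded control by 2.46 ± 0.13 (SE; adjusted p = 4.1e-09).

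Ccne2, the second E-type cyclin, had the largest difference of the 9. Its control villi read 5.61, 6.75, 6.56, 6.21 and 6.08. Its Rb KO villi read 10.22, 9.62, 9.87, 9.74 and 9.55, and its DKO villi 9.62, 9.69, 9.49, 9.13 and 9.39. The nearest control and Rb KO arrays were 2.80 apart. The difference of Rb KO from control was 3.56 ± 0.18 (SE; adjusted p = 3.1e-09), with an interval at 95% confidence from 3.17 to 3.95.

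Cyclin A2, encoded by Ccna2, takes over CDK2 during S phase and later also binds CDK1. Ccna2 in control villi read 8.04, 6.52, 7.77, 8.93 and 7.15, a range of 2.41 within one group. The Rb KO arrays read 9.49, 9.32, 9.28, 9.57 and 10.16, and the DKO arrays 8.14, 8.67, 8.98, 9.54 and 9.72. Rb KO lay above all controls, by 0.35 at the nearest, whereas 3 of 5 DKO arrays did. The difference of Rb KO from control was 1.88 ± 0.38 (SE; adjusted p = 0.00134), and its SE was the largest of the 9.

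Cdk2 encodes the kinase itself. Control villi read 7.72, 7.48, 7.91, 8.10 and 7.17 and Rb KO villi 10.08, 9.74, 9.81, 9.85 and 9.77. DKO villi read 9.55, 9.49, 9.54, 9.60 and 9.73. All Rb KO and all DKO arrays lay above the controls, and the difference of Rb KO from control was 2.17 ± 0.13 (SE; adjusted p = 1.6e-08). Cdk2 was the one member whose DKO arrays all lay below the Rb KO arrays in villi, with 0.0056 between the nearest values, where 2.96% of all genes did.

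The upstream sequences of 3 genes are shown, chosen with the calls known. Cdk2 and Cdc25a hold E2F-type letters and Ccne1 does not. In Rb KO villi Cdk2 and Ccne1 were called, while Cdc25a was not by its brightest probe set. Whether the letters bear on the calls was not tested. They are the 250 bases before the annotated start in RefSeq (assembly GRCm38.p6; the files name no build), 5′ to 3′ along the gene's strand, minus for Cdk2 and Ccne1 and plus for Cdc25a. Capitals mark matches, on either strand, to the 8-letter E2F forms TTTCCCGC, TTTCGCGC, TTTGCCGC and TTTGGCGC or to their 7-letter cores, which are the same letters without the first T.
Cdk2, chr10:128705052-128705301: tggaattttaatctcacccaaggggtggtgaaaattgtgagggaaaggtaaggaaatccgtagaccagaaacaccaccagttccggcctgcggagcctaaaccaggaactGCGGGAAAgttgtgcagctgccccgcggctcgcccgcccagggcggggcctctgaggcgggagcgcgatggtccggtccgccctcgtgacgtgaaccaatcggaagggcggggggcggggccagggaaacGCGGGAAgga
Cdc25a, chr9:109875329-109875578: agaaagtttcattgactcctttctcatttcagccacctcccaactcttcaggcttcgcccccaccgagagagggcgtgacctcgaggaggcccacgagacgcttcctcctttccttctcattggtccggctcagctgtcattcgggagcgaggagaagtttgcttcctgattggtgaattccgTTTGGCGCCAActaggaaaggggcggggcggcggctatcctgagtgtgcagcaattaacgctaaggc
Ccne1, chr7:38107491-38107740: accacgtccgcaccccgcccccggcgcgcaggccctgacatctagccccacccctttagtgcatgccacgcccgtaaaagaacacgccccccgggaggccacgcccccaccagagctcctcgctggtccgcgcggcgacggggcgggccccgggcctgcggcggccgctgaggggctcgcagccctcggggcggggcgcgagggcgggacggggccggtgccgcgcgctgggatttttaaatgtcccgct

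The scanned windows add 50 bases after the start, and positions count from the start, with -1 the last base before it. Cdk2 had an 8-letter match at -140 on the reverse strand, whose core is counted within it, and further cores at -10 and 41. Cdc25a had an 8-letter match at -67, with cores at -66 and, on the reverse strand and overlapping it, at -63. Of all 32851 RefSeq promoter windows of 300 bases, 2.26% held an 8-letter form and 9.57% a core. RefSeq windows were found for 7 of the 9 genes, 10 windows in all, and for Ccne2 and Ccna2 none was used here. The other genes' windows held neither E2F form.

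A further pair of motifs was searched on both strands. The CHR letters TTTGAA, known from late cell cycle genes, occurred at -63 and -55 in 1 of 2 Skp2 windows, at -77 and -17 in Cks1b and at 4 in Fbxo5, against 17.9% of all windows. The E-box CACGTG, a Myc binding sequence, occurred in none of the 10 windows, against 7.15% of all. A match is a string of letters and not a measured binding site. Only the listed letters in these windows were searched, so a lack of matches does not show a lack of sites.

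Cdc25a encodes a phosphatase that removes inhibitory phosphates from CDK2. It was 10.04 to 10.56 in control villi, 9.93 to 10.19 in Rb KO, and in DKO 10.01 to 10.33. The 3 groups overlapped, and the difference of Rb KO from control was -0.17 ± 0.10 (SE; adjusted p = 0.206), with an interval at 95% confidence from -0.37 to 0.03.

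Skp2 and Cks1b encode the F-box protein and the small adaptor with which the SCF ubiquitin ligase removes the CDK inhibitor p27. Skp2 in control villi read 6.53, 6.46, 6.81, 7.12 and 6.86, and in Rb KO villi 8.72, 8.51, 8.59, 8.57 and 8.46. DKO villi read 8.02, 8.16, 8.20, 8.35 and 8.46. The mutant groups were fully above the controls, and the difference of Rb KO from control was 1.81 ± 0.11 (SE; adjusted p = 1.8e-08).

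Cks1b spread more. Its control villi read 8.43, 7.32, 8.30, 9.17 and 7.52. Its Rb KO villi read 9.70, 9.04, 9.20, 9.97 and 9.72 and its DKO villi 8.48, 8.46, 8.90, 9.39 and 9.58. Control replicate 4 lay above 1 Rb KO array, and 4 of 5 Rb KO arrays lay above all controls. The difference of Rb KO from control was 1.38 ± 0.32 (SE; adjusted p = 0.00378).

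Fbxo5 encodes EMI1, which inhibits the anaphase-promoting complex so that cyclin A can accumulate. Control villi read 6.73, 5.90, 6.44, 7.36 and 6.20 and Rb KO villi 9.52, 8.99, 9.20, 9.32 and 9.29. DKO villi read 8.23, 8.74, 8.78, 8.87 and 9.08. Every mutant array lay above every control array, and the difference of Rb KO from control was 2.74 ± 0.22 (SE; adjusted p = 2.4e-07).

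Fbxw7 encodes the F-box protein that marks cyclin E, and also Myc, for destruction. It was 7.23 to 7.38 in control villi, 7.07 to 7.61 in Rb KO, and in DKO 7.09 to 7.39. The difference of Rb KO from control was 0.06 ± 0.09 (SE; adjusted p = 0.689; interval at 95% confidence -0.14 to 0.25). The 3 groups overlapped.

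A crypt marker score was set beside these values. It is the mean of the 9 crypt markers on an array minus its mean over the tissue. In villi it was -0.39 ± 0.93 in controls, 0.06 ± 0.47 in Rb KO and 0.33 ± 0.46 in DKO (SD, n = 5), and Rb KO differed from control by 0.45 (exact permutation test, two-sided, p = 0.365, adjusted over 6 comparisons 0.413). Single arrays moved that difference: it was 0.22 without control replicate 2, 0.25 without control replicate 5, 0.27 without Rb KO replicate 4 and 0.78 without control replicate 4. Among control villi, Ccna2, Cks1b and Fbxo5 ranked the 5 arrays as the score did, with replicate 4 highest and replicate 2 lowest. That was 3 of 9 genes, and in the other 5 groups 0 of 9 did so. The order was read only for the 9 genes, so whether it is particular to these 3 was not tested. After adjustment for the score the same 7 genes were called in Rb KO villi, where 14.5% of all genes were called higher. Ccna2 was then 1.5 (adjusted p = 1.4e-04) and Cks1b 1.01 (adjusted p = 3.1e-05), and Ccne1, Ccne2, Cdk2, Skp2 and Fbxo5 were between 1.74 and 3.65. Of 6 T cell markers, 5 were lower in Rb KO villi, and the mean of the list was 10.38 to 11.00 in controls and 9.78 to 10.53 in Rb KO. Of the 9 villus enterocyte markers 2 were called lower, where 15.8% of all genes were. Of 6 stroma markers none was called by limma, and none was at an unadjusted p below 0.05. The part of the T cell markers in these results was not tested.

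**Figure D2:**
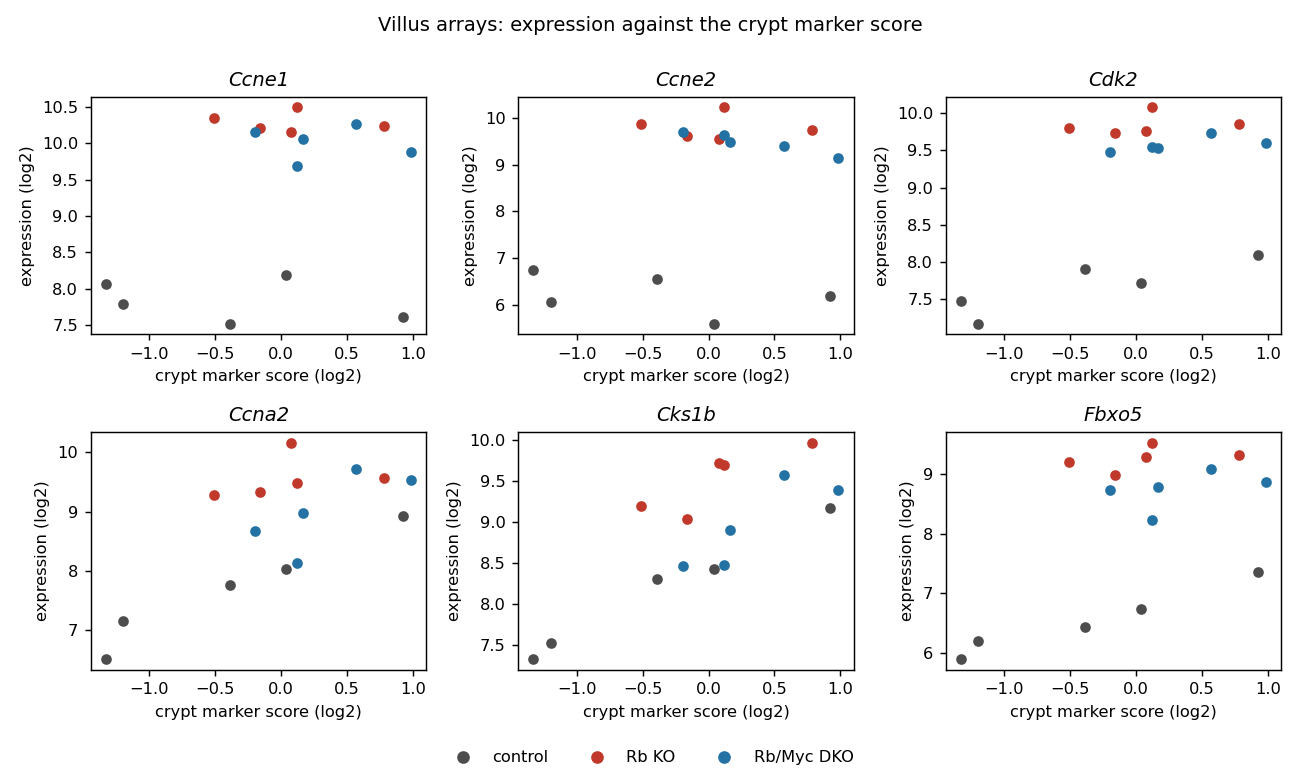
Log2 expression of 6 of the genes against the crypt marker score (log2) on the 15 villus arrays, coloured by genotype. In the lower row, Ccna2, Cks1b and Fbxo5 rank the 5 control arrays as the score does. The mutant arrays of Ccne1, Ccne2 and Cdk2 in the upper row, and those of Fbxo5, lie above all control arrays. The control arrays of replicates 2 and 5 lie at scores below those of every mutant array.

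The comparison of DKO with Rb KO is between groups labelled as having Rb1 deleted, with and without deletion of Myc. In villi Myc itself differed by -0.52 ± 0.21 (SE) between them, which did not pass the test of limma (adjusted p = 0.147). In villi none of the 9 genes was called between DKO and Rb KO by limma, against 7.83% of all genes and 1.92% called lower. At an unadjusted p below 0.05, where 10.1% of all genes were lower in DKO, 3 of the 9 were lower: Skp2 at -0.33 ± 0.11 (SE; adjusted p = 0.0897), Fbxo5 at -0.52 ± 0.22 (adjusted p = 0.155) and Ccne1 at -0.28 ± 0.13 (adjusted p = 0.202). The values of Ccne2, Cdk2, Ccna2 and Cks1b were -0.33, -0.27, -0.56 and -0.56. The intervals at 95% confidence of Ccna2, from -1.36 to 0.25, and of Cks1b, from -1.24 to 0.11, are wide. Of 6 T cell markers 3 were called higher in DKO than in Rb KO villi, where 5.90% of all genes were. The list's mean was 10.54 to 10.89 in DKO and 9.78 to 10.53 in Rb KO, and its part was not tested.

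After adjustment for the crypt marker score, 5 of the 9 were called lower in DKO than in Rb KO villi, where 7.64% of all genes were. These were Cks1b (-0.56 without and -0.78 with the score, adjusted p = 0.00108), Fbxo5 (-0.65, adjusted p = 0.00557), Skp2 (-0.37, adjusted p = 0.0216), Ccna2 (-0.78, adjusted p = 0.0238) and Cdk2 (-0.34, adjusted p = 0.0291). The score itself was 0.27 higher in DKO than in Rb KO villi (exact permutation test, two-sided, p = 0.373, adjusted over 6 comparisons 0.413). That difference was 0.10 without DKO replicate 4, 0.12 without Rb KO replicate 3 and 0.45 without Rb KO replicate 4. The single markers of the score differed unevenly, from -0.01 for Ascl2 to 0.95 for Ang4, and none of the 9 was called by limma. How far the 5 calls rest on single markers was not tested. A fit on only the 2 groups called Skp2 (adjusted p = 0.0390) and Fbxo5 (adjusted p = 0.0455) lower, as it did 2.54% of all genes.

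Against controls, 6 of the 9 were higher in DKO villi, where 17.1% of all genes were called and 11.3% were called higher. Ccne2 exceeded control by 3.22 ± 0.18 (SE; adjusted p = 1.4e-08), Fbxo5 by 2.22 ± 0.22 (adjusted p = 3.6e-06), Ccne1 by 2.18 ± 0.13 (adjusted p = 2.0e-08), Cdk2 by 1.90 ± 0.13 (adjusted p = 9.6e-08) and Skp2 by 1.48 ± 0.11 (adjusted p = 2.8e-07). The DKO arrays of those 5 genes lay above every control array, as 8.99% of all genes did. Myc itself was -0.30 in DKO against control villi (adjusted p = 0.354), and those groups overlapped. No T cell or stroma marker was called in this comparison by limma, and none was at an unadjusted p below 0.05. Ccna2, at 1.33 ± 0.38 (adjusted p = 0.0243), lost its call when control replicate 2 or 5 or DKO replicate 4 or 5 was left out (adjusted p from 0.0622 to 0.0687), and after adjustment for the crypt marker score (0.71, adjusted p = 0.0592), where 9.77% of all genes were called higher. Cks1b was 0.81 (adjusted p = 0.0928) and was called without control replicate 4 (1.07, adjusted p = 0.0171), whereas after adjustment for the score it was 0.23 (adjusted p = 0.291).

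**Figure D3:**
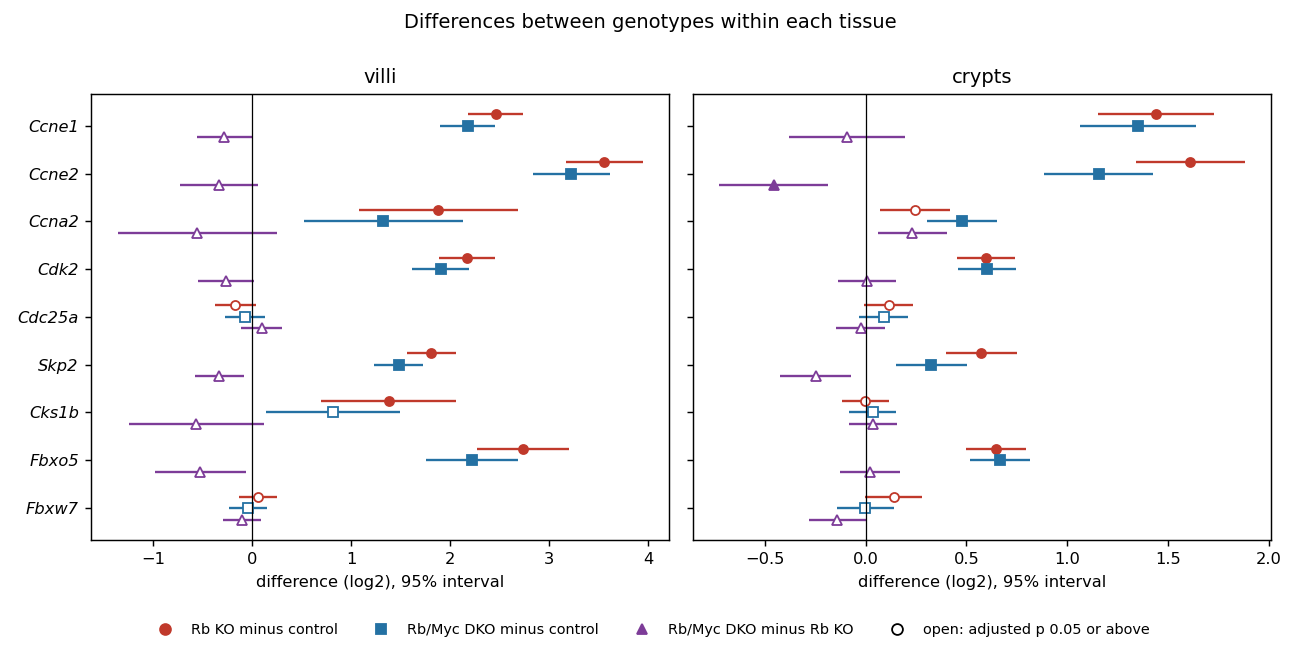
Differences between genotypes for the 9 genes in villi and crypts, on the log2 scale, with intervals at 95% confidence from the limma fit. Filled symbols are called and open ones are not, and the panels have different axes. The Rb KO and DKO symbols lie close to each other for most genes, and the triangles of DKO against Rb KO are open except that of Ccne2 in crypts.

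In crypts, where cells divide in controls too, 5 of the 9 genes were higher in Rb KO than in control: Ccne2 3.05-fold, Ccne1 2.72-fold, Fbxo5 1.56-fold, Cdk2 1.51-fold and Skp2 1.49-fold. Of all genes 10.3% were called and 7.33% were called higher. The median of the 9 differences was 0.57, against -0.0030 over all genes. Of the T cell, stroma and villus enterocyte markers none was called by limma, and 1 enterocyte marker was at an unadjusted p below 0.05. Of 9 crypt markers 1 was called lower, where 2.97% of all genes were.

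Ccne1 in control crypts read 9.71, 8.67, 8.97, 9.05 and 9.07, and in Rb KO crypts 10.75, 10.42, 10.57, 10.57 and 10.38. DKO crypts read 10.52, 10.50, 10.41, 10.35 and 10.45. Control replicate 1 was the highest control and still lay 0.64 below the lowest DKO array. Rb KO exceeded control by 1.44 ± 0.14 (SE; adjusted p = 7.0e-06) and DKO by 1.35 ± 0.14 (adjusted p = 6.0e-06).

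Ccne2 in control crypts read 7.94, 7.95, 8.14, 8.18 and 7.93, and in Rb KO crypts 9.59, 9.62, 9.74, 9.50 and 9.74. DKO crypts read 9.41, 9.66, 9.12, 8.90 and 8.83. The controls and the Rb KO arrays were tight, and the DKO arrays spread between them, 4 of 5 below all Rb KO arrays. Rb KO exceeded control by 1.61 ± 0.13 (SE; adjusted p = 3.3e-06). Ccne2 was the only member called between DKO and Rb KO crypts, at -0.45 ± 0.13 (SE; adjusted p = 0.0285), in a comparison where 12.4% of all genes were called and 7.22% were called lower. That call was lost when Rb KO replicate 2, 3 or 5 or DKO replicate 3, 4 or 5 was left out (adjusted p from 0.0526 to 0.0701). It was also lost after adjustment for the crypt marker score (-0.34, adjusted p = 0.211), where 6.28% of all genes were called lower. The score was 0.30 higher in DKO than in Rb KO crypts (exact permutation test, two-sided, p = 0.0159, adjusted over 6 comparisons 0.0952). There 3 of 9 crypt markers, 1 of 9 enterocyte markers and 1 of 6 T cell markers were called higher, as 5.17% of all genes were.

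Cdk2 in control crypts read 9.93, 9.84, 9.97, 10.23 and 9.78. Rb KO crypts read 10.58, 10.60, 10.57, 10.52 and 10.46 and DKO crypts 10.59, 10.54, 10.51, 10.57 and 10.56. Both mutant groups lay above the controls and lay close in mean, with 0.01 between them (interval at 95% confidence -0.14 to 0.15). Fbxo5 followed the same pattern, from 9.72 to 10.06 in controls to 10.56 to 10.69 in Rb KO, and in DKO 10.46 to 10.80, with 0.02 between the mutants (interval at 95% confidence -0.13 to 0.17). After adjustment for the score these were -0.12 (adjusted p = 0.316) and -0.09 (adjusted p = 0.518). The differences of Rb KO from control were 0.60 ± 0.07 for Cdk2 (SE; adjusted p = 4.4e-05) and 0.65 ± 0.07 for Fbxo5 (adjusted p = 2.7e-05).

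Skp2 in crypts was 8.72 to 9.10 in controls, 9.30 to 9.53 in Rb KO, and in DKO 9.0 to 9.43, the middle group in level being DKO. It exceeded control by 0.57 ± 0.08 in Rb KO (SE; adjusted p = 3.9e-04) and by 0.33 ± 0.08 in DKO (adjusted p = 0.0108). Its DKO arrays were -0.25 from the Rb KO arrays, which did not pass the test (adjusted p = 0.0629).

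Ccna2 in control crypts read 11.76, 11.53, 11.77, 11.51 and 11.68. Rb KO crypts read 11.85, 11.85, 11.85, 12.04 and 11.87 and DKO crypts 11.87, 12.08, 12.22, 12.34 and 12.12. The Rb KO arrays all lay above the controls, by 0.08 at the nearest, yet the difference of 0.25 ± 0.08 did not pass the test (SE; adjusted p = 0.0676). DKO exceeded control by 0.48 ± 0.08 (SE, adjusted p = 6.0e-04), and the double knockout held the highest mean. Its difference from Rb KO, 0.23 ± 0.08, did not pass the test (SE, adjusted p = 0.0751), and neither did that in villi, at -0.56.

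Cks1b did not pass the test in crypts, with 11.66 to 11.87 in controls, 11.71 to 11.82 in Rb KO, and in DKO 11.69 to 11.92. Its difference of Rb KO from control had an interval at 95% confidence from -0.12 to 0.12. Cdc25a and Fbxw7 were 0.11 (adjusted p = 0.238) and 0.14 (adjusted p = 0.215), with intervals at 95% confidence from -0.01 to 0.24 and from -0.0019 to 0.28. In DKO against control crypts 6 of the 9 genes were higher, the 5 of Rb KO and Ccna2, where 20.2% of all genes were called and 11.0% were called higher. The DKO arrays of 5 genes, Ccne1, Ccne2, Ccna2, Cdk2 and Fbxo5, lay above every control array, as 7.54% of all genes did. In the same comparison 2 of 6 T cell markers were called higher, Cd3g at 0.89 ± 0.23 (SE; adjusted p = 0.0123) and Itgae at 0.58 ± 0.11 (adjusted p = 0.00135), and 5 of 6 were higher at an unadjusted p below 0.05. The mean of the list was 7.21 to 7.86 in control, 7.34 to 8.15 in Rb KO, and in DKO crypts 7.85 to 8.32. The part of these markers in the results was not tested.

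The effect of Rb loss was larger in villi than in crypts for 7 of the 9 genes by an interaction test, in which 13.7% of all genes were called and 6.76% were called larger in villi. The difference in villi exceeded that in crypts by 2.09 ± 0.24 for Fbxo5 (SE; adjusted p = 5.9e-07), 1.95 ± 0.23 for Ccne2 (adjusted p = 1.4e-06), 1.64 ± 0.41 for Ccna2 (adjusted p = 0.00711) and 1.57 ± 0.15 for Cdk2 (adjusted p = 4.8e-08). It did so by 1.38 ± 0.34 for Cks1b (adjusted p = 0.00670; 0.87 after adjustment for the score), 1.24 ± 0.15 for Skp2 (adjusted p = 9.3e-07) and 1.02 ± 0.20 for Ccne1 (adjusted p = 8.1e-04). Villi and crypts of one number were taken as one animal, and with the animal as a block the same 7 were called together with Cdc25a. Cdc25a went the other way at -0.28 (adjusted p = 0.0481 with the block, 0.0936 without). That rests on its brightest probe set. Without the block its other sets gave -0.04 (1417132_at, adjusted p = 0.829) and 0.17 (1445995_at, adjusted p = 0.576). Of the T cell markers 4 of 6 were called lower in the interaction of Rb loss, and their part was not tested. In the interaction for DKO against Rb KO no member was called by limma, against 3.40% of all genes and 1.11% with a lower value in villi. At an unadjusted p below 0.05, where 8.92% of all genes were lower, 1 member was, Fbxo5 at -0.55 (adjusted p = 0.197). After adjustment for the crypt marker score 2 were called, against 2.52% of all genes in that direction, Cks1b at -0.57 (adjusted p = 0.0222) and Fbxo5 at -0.53 (adjusted p = 0.0361).

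The other probe sets of the genes were read as well. Ccne1's brightest set, 1441910_x_at, carries the maker's mark for probes that may match other transcripts, and its second set, 1416492_at, differed by 3.14 between Rb KO and control villi (adjusted p = 7.8e-10) and by 1.55 in crypts (adjusted p = 2.5e-07). The second sets of Ccna2 and Cks1b gave 1.96 and 0.98 in villi and were called too. All 5 other Skp2 sets were called higher in Rb KO villi, from 0.91 to 2.10, and 4 of 5 in crypts. The exception in crypts was 1425072_at, at 0.23 (adjusted p = 0.0918). One of them, 1460247_a_at, was also called between DKO and Rb KO villi, at -0.39 (adjusted p = 0.0232). Not called there were 1436000_a_at at -0.34, 1437033_a_at at -0.23, 1425072_at at -0.06 and 1449293_a_at at 0.0096. The size of that Skp2 difference thus depended on the probe set. In crypts 1425072_at was 0.26 higher in DKO than in Rb KO (adjusted p = 0.0525), while the brightest and the other sets were lower.

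Probe sets of Cdk2 and Cdc25a disagreed. The second Cdk2 set, 1447617_at, had a mean of 3.21 over all arrays, below the filter, and did not pass the test (-0.029 in Rb KO against control villi, adjusted p = 0.852). For Cdc25a the dimmest of 3 sets, 1445995_at, was 0.39 higher in Rb KO than in control villi (adjusted p = 0.0152) and -0.38 in DKO against Rb KO villi (adjusted p = 0.0490), while the middle set, 1417132_at, was not called (0.06, adjusted p = 0.593). The sign and the call for Cdc25a in villi thus differed between its probe sets.

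**Figure D4:**
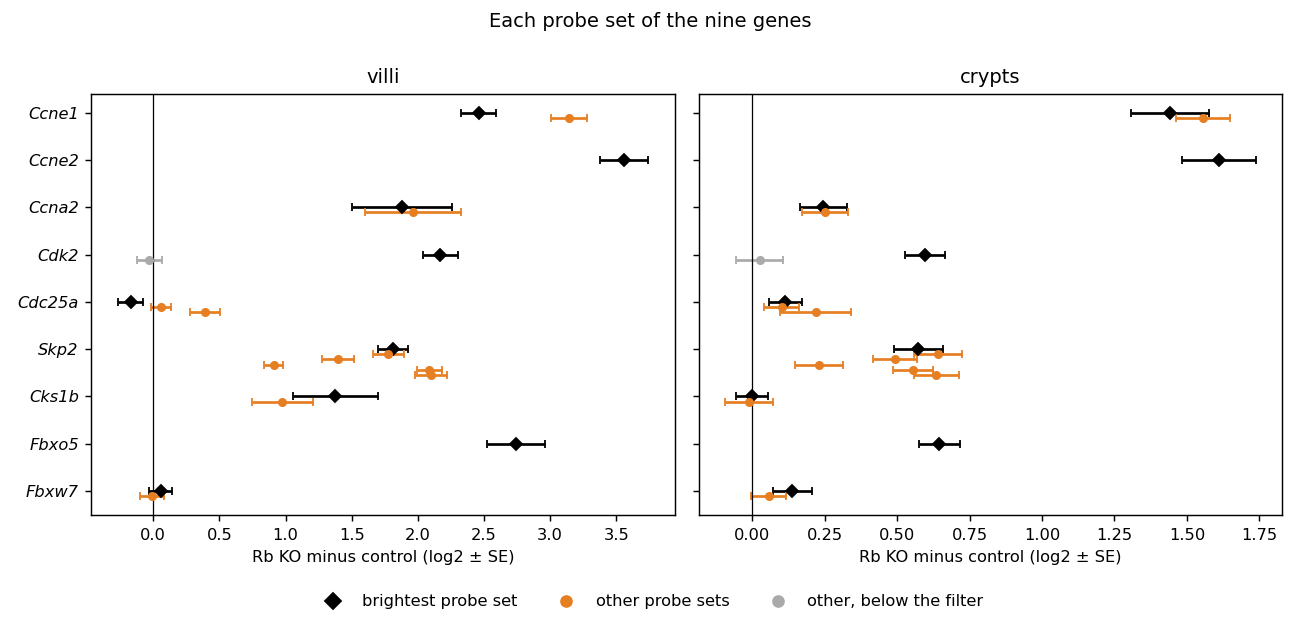
Rb KO minus control for every probe set of the 9 genes in villi and crypts, on the log2 scale with SE, the brightest set as a diamond and the others as circles, grey where below the filter. The 6 Skp2 sets all lie to the right of 0 in villi, from 0.91 to 2.10, and the grey Cdk2 set lies near 0 while the bright one lies at 2.17.

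Around these genes stand 35 others of the pathway that passed the filter, in 6 lists by role. The lists too were fixed with earlier results of these data known. In Rb KO villi 19 of the 35 were higher and 3 lower, where 14.7% and 15.8% of all genes were, and in crypts 13 were higher and 4 lower, where 7.33% and 2.97% were. The targets that act at S-phase entry, E2F genes and replication licensing factors among them, rose in 8 of 8 in villi and 6 of 8 in crypts. Cdc6, which loads the replicative helicase, was 3.13 ± 0.21 in villi (SE; adjusted p = 4.1e-08) and was 0.99 ± 0.09 in crypts (adjusted p = 5.8e-06). Cdt1, its partner in licensing, was 2.32 ± 0.13 in villi (adjusted p = 5.1e-09) and was 0.74 ± 0.07 in crypts (adjusted p = 6.8e-06).

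Of 5 inhibitors of CDK2, 2 were higher and 2 lower in Rb KO villi, and 3 were higher and 1 lower in crypts. Rbl1, which encodes the Rb relative p107, was 1.21 ± 0.08 in villi (SE; adjusted p = 4.1e-08) and was 0.55 ± 0.05 in crypts (adjusted p = 3.5e-06). Cdkn1a, the gene of the inhibitor p21, was 0.87 ± 0.10 (adjusted p = 8.8e-06) and 1.06 ± 0.13 (adjusted p = 7.7e-05). Cdkn1b, the gene of p27 and named after its values were seen because Skp2 and Cks1b act on its protein, was -0.86 ± 0.16 in villi (adjusted p = 6.9e-04) and was -0.85 ± 0.19 in crypts (adjusted p = 0.00920). Its transcript rose by 1.17 from Rb KO to DKO villi (adjusted p = 8.6e-04) and by 1.17 in crypts (adjusted p = 9.1e-04).

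Among 7 genes that set the phosphorylation of CDK2, 3 were higher in Rb KO villi and 1 in crypts. Cdc25b, a phosphatase related to Cdc25a, was 1.82 ± 0.17 in villi (SE; adjusted p = 1.5e-06) and was 0.71 ± 0.10 in crypts (adjusted p = 2.8e-04), and Cdc25c was 0.70 ± 0.14 in villi (adjusted p = 0.00102). Both relatives of Cdc25a thus rose in villi, while its own brightest set did not pass the test. Of 8 partners in the SCF and anaphase-promoting ligases, 3 were higher and 1 lower in villi and 1 was higher in crypts. Cks2, the close relative of Cks1b, was 1.51 ± 0.27 in villi (adjusted p = 4.8e-04) and was 0.11 in crypts (adjusted p = 0.279), and Usp37, a deubiquitinase that stabilises cyclin A, was 0.91 ± 0.08 in villi (adjusted p = 1.1e-06) and was 0.54 ± 0.10 in crypts (adjusted p = 0.00184).

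D-type cyclins and their kinases, which act on Rb before cyclin E does, had 2 of 5 higher in Rb KO villi, and 1 higher and 3 lower in crypts. Ccnd3 was 0.52 ± 0.07 in villi (SE; adjusted p = 4.1e-05) and was 0.57 ± 0.05 in crypts (adjusted p = 6.8e-06). Cdk4 was 0.89 ± 0.22 in villi (adjusted p = 0.00663) and was 0.06 in crypts (adjusted p = 0.646). Of the remaining kinases, Cdk1, the mitotic partner of cyclin A, was 2.95 ± 0.35 in villi (adjusted p = 1.6e-05) and was 0.47 ± 0.08 in crypts (adjusted p = 0.00103), and Cdk3 did not pass the test in either tissue. Between DKO and Rb KO the 35 genes had 3 higher and none lower in villi by limma, where 7 were lower at an unadjusted p below 0.05 (10.1% of all genes were) and 5.90% of all genes were called higher. In crypts they had 4 higher and 3 lower, where 5.17% and 7.22% of all genes were.

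**Figure D5:**
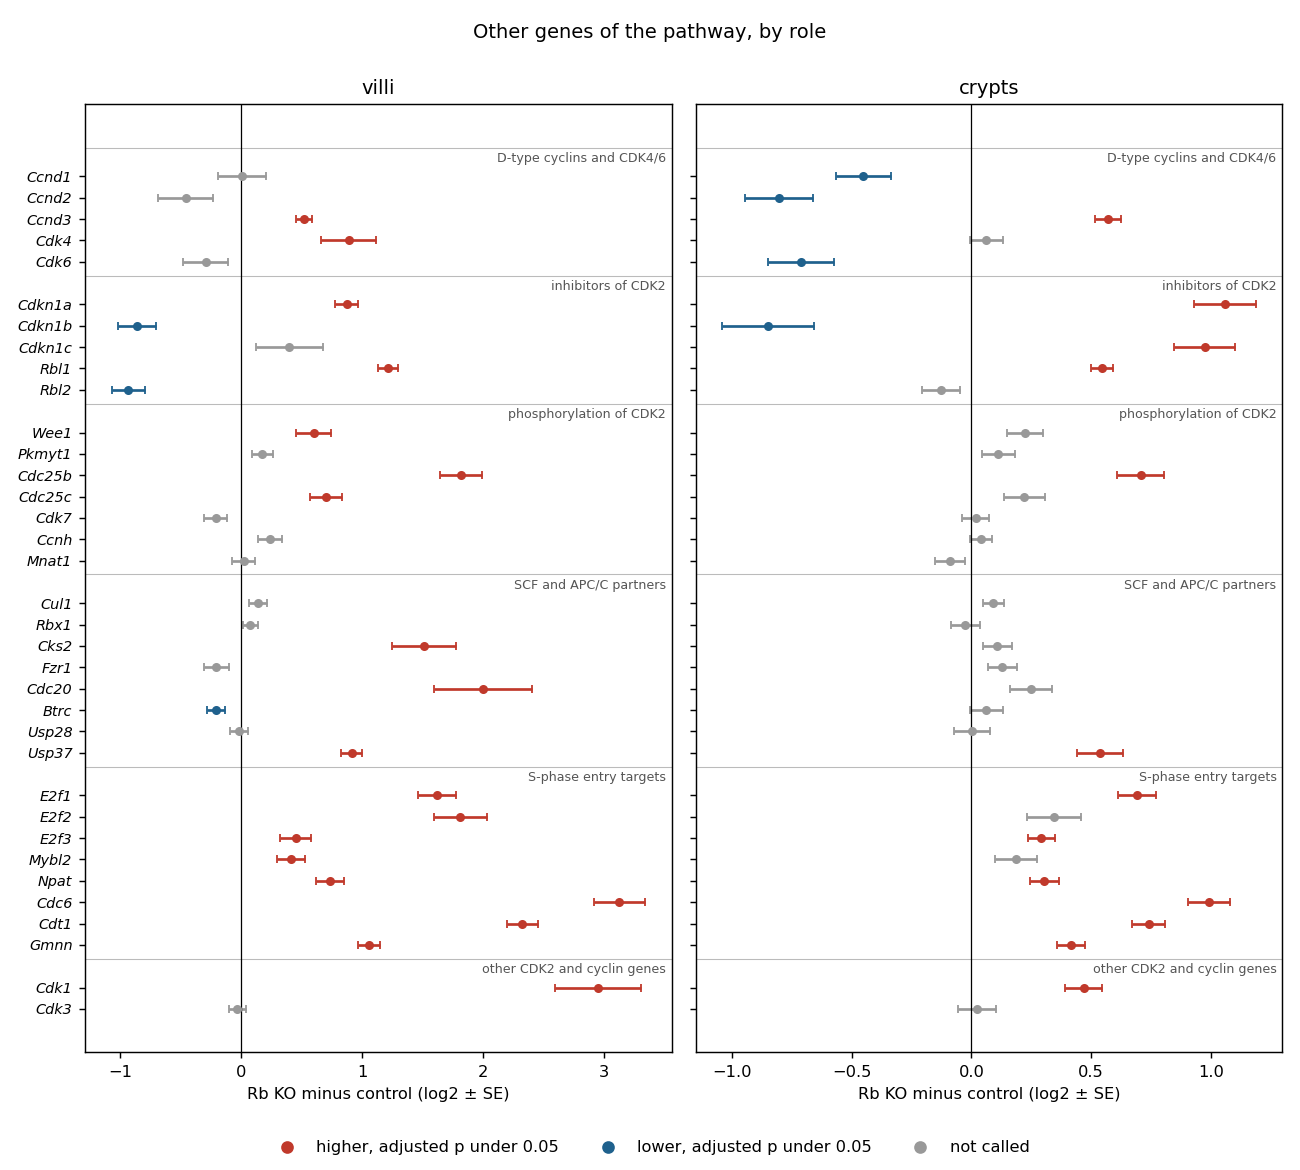
Rb KO minus control for 35 other genes of the pathway in villi and crypts, on the log2 scale with SE, grouped by role, red where called higher, blue where called lower and grey where not called; the panels have different axes. All 8 S-phase entry targets are red in villi, and Cdkn1b is blue in both tissues.

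Likeness was measured as Pearson's r over 30 arrays after the mean of each tissue was taken off, and the points share genotype, so r is a description. The most alike gene was Wdhd1 for Ccne1 (r = 0.970), Cdt1 for Ccne2 (0.971), Ccnb2 for Ccna2 (0.988), Mcm4 for Cdk2 (0.989), E2f7 for Skp2 (0.972), Cks2 for Cks1b (0.974) and Rrm2 for Fbxo5 (0.992). The second most alike gene reached 0.969 for Ccne1, 0.972 for Skp2 and 0.992 for Fbxo5, so the first was not set apart there. The 2 genes without a call followed others less closely, Cdc25a with Fblim1 at 0.716 and Fbxw7 with Zfp592 at 0.674.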

How the data were processed

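RNA of villi and crypts was hybridized to 30 arrays, 5 for each of 6 groups. The authors deposited log2 expression for 45101 probe sets, between 2.64 and 15.21, and how the authors normalized them is not given in the sources used here. Medians were 6.28 to 6.34 in villi and 6.67 to 6.73 in crypts, and a pair of arrays shared 285 to 596 identical values within a tissue and at most 1 across tissues, so the tissues were taken as normalized apart. Per the labels, total RNA was isolated with TRIzol, cleaned with an RNeasy kit and labelled with biotin.

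Of the probe sets, 34958 have 1 gene symbol, 932 several and 9211 none, and 34754 of those with 1 were found in a gene table of assembly GRCm38.p6. Each of 18194 genes was read from its probe set of highest mean, and the 14548 with a mean above the 30th percentile of probe sets (5.33) were tested. limma 3.58.1 in R 4.3.3 was fitted per tissue over 15 arrays and 3 genotypes, and over 30 arrays for the interaction, with Benjamini-Hochberg adjustment. On simulated data with known changes among 14548 genes, the fits within a tissue found 78% to 92% of genes changed 1.5-fold. The interactions found 76% and 68% of them. Of genes changed 2-fold, 94% to 99% were found, with 8 to 16 false calls per comparison. These are shares over all genes, not for single genes with an SE such as that of Ccna2 (0.38) or Cks1b (0.32) in villi.

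Villi and crypts with the same genotype and number deviated together in 15 of 15 pairs (r from 0.246 to 0.560, median 0.418), and 14 correlated best with their own number, so they were taken as the same animal. The genes named were the 9, Rb1 and Myc, of each pathway list the 2 of smallest p in Rb KO against control villi and the 1 in crypts, and for each of the 9 the most alike gene. Members and lists were chosen with earlier results of these data known. The crypt markers were Lgr5, Olfm4, Smoc2, Ascl2, Itln1, Ang4, Mmp7, Lyz1 and Slc12a2. Sis and Skp1a had no probe set of their own, and Ccna1 was below the filter. Alternatives were other filters, probe set means, other normalizations, only the groups compared, other limma settings, a replicate block, the crypt score as a covariate, a stricter threshold and leaving out each replicate. Figures were drawn with matplotlib 3.10.9.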

Additional observations from a re-analysis of the deposited data

Results flagged for a closer look

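Ccna2 in Rb KO crypts held 1 array far from the others: replicate 4 read 12.04 against 11.87 for the nearest, a gap of 0.902 of the group's range. It was the 1 such array among 54 groups of 5 arrays looked at, and chance alone gives about 1 in 20.

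The effect of Rb loss differed between villi and crypts, by the interaction test of limma, for 7 of the 9 genes. The difference in villi minus that in crypts was 1.02 for Ccne1, 1.95 for Ccne2, 1.64 for Ccna2, 1.57 for Cdk2, 1.24 for Skp2, 1.38 for Cks1b and 2.09 for Fbxo5.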

How the results depend on the processing

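Of 1608 alternative values of the 9 genes' differences, 1566 kept their side of the threshold, 16 lost a call, 21 gained one and 5 reversed with a call in at least 1 of the fits. Of the 1566, 1523 also kept their sign, and 43, of 20 differences that were called in neither fit, changed it. In Rb KO against control villi 7 genes were called under every alternative run at the level of counts, leave-one-out included. In Rb KO against control crypts the count stayed 5 with any 1 array left out. There, of 183 alternative values, 2 lost a call and 2 gained one. In DKO against control villi 6 of 183 lost a call and 2 gained one. In DKO against Rb KO villi the count, 0, became 2 with only the 2 groups compared and 5 after adjustment for the crypt marker score, and stayed 0 with any 1 array left out. In DKO against Rb KO crypts the count, 1, became 2 after quantile normalization, 2 with only the 2 groups compared, 0 with the score as a covariate and 0 at an adjusted p below 0.01, and ran from 0 to 2 with 1 array left out. For the interaction of DKO against Rb KO the count, 0, became 2 with the score as a covariate. The crypt marker score of DKO against control villi, 0.72, ran from 0.48 to 1.05 with 1 array left out, and the highest value, without control replicate 4, had p = 0.0317 (exact permutation test). The reversals came from probe sets that were not the brightest of their gene. For Cdk2, 1447617_at, below the filter, gave -0.0287 in Rb KO and -0.0565 in DKO against control villi. It gave -0.0540 in the interaction of Rb loss. For Cdc25a, 1445995_at had a mean of 6.59, above the filter. That set gave 0.39 in Rb KO against control villi and -0.38 in DKO against Rb KO villi. The cause was not tested. Genotypes of one tissue share only a number: with the replicate block the counts were 7, 0 and 7 in villi (Cks1b gained in DKO against control, adjusted p = 0.0314, limma) and 5, 1 and 6 in crypts, in the order used above, and the correlations of same-numbered arrays ran from -0.197 to 0.419 in villi and from -0.274 to 0.404 in crypts, 4 and 2 of 15 arrays correlating best with their own number. With the animal as the replicate block the interactions gave 8 and 0. The number of arrays limits what can be seen, and signal over background is not in the deposited values.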
